A study of Homo sapiens with 12 samples.

Results

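The small nucleolar RNA (snoRNA) host genes are lncRNA genes that carry snoRNAs in their introns. They were taken here as every GENCODE lncRNA gene named SNHG followed by a number, together with GAS5, which gave 29 of 18866 lncRNA genes and of 38899 lncRNA and protein-coding genes on chromosomes 1 to 22, X and Y. The members lie on 15 chromosomes. The rule uses gene names and types only, but the family was chosen for description with earlier results of these data known. A member was called bound when the summit of an HSF1 CUT&Tag peak, the base with the highest signal in that peak, lay within 1 kb of any of its annotated transcript starts.

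The study examined HSF1, the transcription factor known for the heat shock response, and its relation to MYCN in hepatocellular carcinoma, with Huh7 as the human carcinoma cell line of this series. CUT&Tag, in which an antibody brings a transposase to a chromatin protein so that the DNA beside it is cut out and sequenced, was run on Huh7 cells whose sample titles name no siRNA or other treatment. There was 1 library with an antibody against HSF1 and 1 with an antibody against H3K27ac, an acetylation of histone H3 found at active promoters and enhancers. Both came from the same line, were unreplicated and were called without a control library, so every comparison lacks a replicate check and no test across samples could be made. Removal of duplicates left 2712212 of 3604911 tags (75.2%) in the HSF1 library, which gave 7147 peaks on these chromosomes. It left 896393 of 15737890 tags (5.70%) in the H3K27ac library, which gave 1299 peaks. The labels name liver as the source. Among 9 hepatocyte markers, HSF1 peaks were listed at APOB and HNF4A and H3K27ac peaks at none. Of 9 leukocyte, fibroblast and endothelial markers, COL1A1 had an HSF1 peak and none had an H3K27ac peak. Over all protein-coding genes the shares were 25.4% for HSF1 and 3.31% for H3K27ac. Lists this short therefore do not show the liver origin of the cells.

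A snoRNA host gene is transcribed as a whole and spliced, and the snoRNA is then trimmed out of the excised intron. Box C/D snoRNAs (SNORD) guide 2′-O-methylation of ribosomal RNA, box H/ACA snoRNAs (SNORA) guide pseudouridylation, and the related SCARNAs guide the modification of spliceosomal RNAs. The spliced exons of many of these hosts hold no long open reading frame and are degraded by nonsense-mediated decay, and several hosts, GAS5 among them, are known to begin with a 5′ terminal oligopyrimidine (TOP) tract, as the messenger RNAs of ribosomal proteins do. By the annotation, each of the 29 members held at least 1 snoRNA or SCARNA gene in an intron. There were 145 in all, with 117 SNORD, 22 SNORA and 4 SCARNA genes and 2 without such a symbol, and 81 of the SNORD genes lay in SNHG14 alone. GAS5 held 11 and SNHG1 held 9, counted as separate places in the genome, of which 2 in SNHG1 carry the same symbol, SNORD22.

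The DNA under the highest HSF1 signal is shown for the 5 bound host genes with the strongest fold enrichment, since these carry the binding described next. Each stretch is hg38 sequence on the strand of the host gene, read 5′ to 3′, with 50 bases to either side of the summit (for GAS5 a shorter stretch of 82 bases). Capitals mark CCAAT or its complement ATTGG, the box to which the factor NF-Y is known to bind. SNHG29 held 2, SNHG10 and SNHG19 held 1 each, and none was present for SNHG31 and GAS5.
SNHG31, chr2:214809940-214810040, plus strand: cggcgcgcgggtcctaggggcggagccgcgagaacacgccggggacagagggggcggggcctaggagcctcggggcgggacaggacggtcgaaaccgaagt
SNHG10, chr14:95534676-95534776, minus strand: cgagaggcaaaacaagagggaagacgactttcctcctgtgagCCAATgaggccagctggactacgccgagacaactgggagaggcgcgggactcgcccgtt
GAS5, chr1:173868298-173868379, minus strand: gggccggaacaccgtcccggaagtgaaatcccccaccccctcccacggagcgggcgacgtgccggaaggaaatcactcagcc
SNHG29, chr17:16438702-16438802, plus strand: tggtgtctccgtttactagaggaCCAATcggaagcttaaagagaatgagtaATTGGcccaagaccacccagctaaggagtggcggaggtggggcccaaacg
SNHG19, chr16:2155437-2155537, minus strand: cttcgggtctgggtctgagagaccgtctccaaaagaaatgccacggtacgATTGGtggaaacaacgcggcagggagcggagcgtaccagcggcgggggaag

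Of the 29 host genes, 12 were bound by HSF1, a share of 41.4% (95% Wilson interval 25.5 to 59.3). The background was 7.82% for all lncRNA genes (1475 of 18866, interval 7.44 to 8.21) and 25.4% for protein-coding genes (5098 of 20033, interval 24.8 to 26.1). The interval of the host genes lay above that of all lncRNA genes and overlapped that of protein-coding genes. These intervals cover counting error only, and neighbouring genes can share a peak. No peak was shared among the host genes: the 12 bound members had 12 distinct peaks, 1 each, and no member held a further HSF1 peak in its body.

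**Figure D1:**
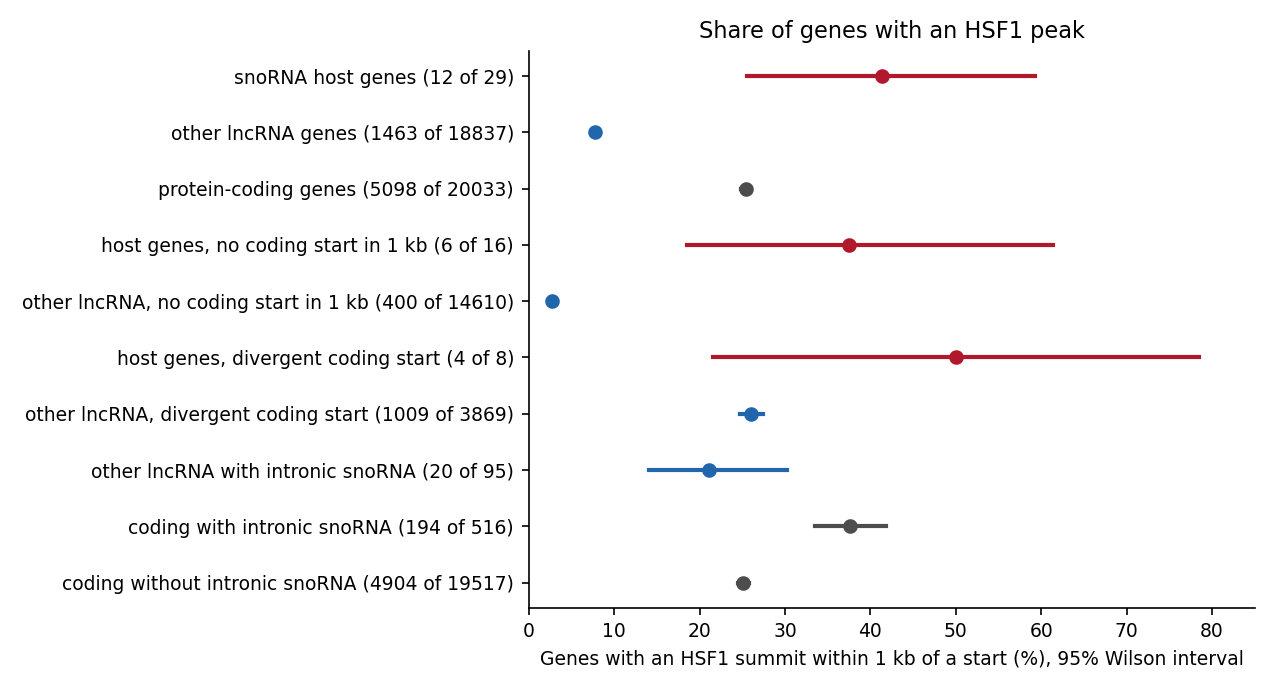
Share of genes (x axis, percent) with an HSF1 summit within 1 kb of a start for snoRNA host genes (red), other lncRNA genes (blue) and protein-coding genes (dark grey), whole and by subgroup, where "other lncRNA" leaves out the host genes and lines are 95% Wilson intervals. The host genes stand at 41.4%, and those with no coding start in 1 kb stand at 37.5% against 2.74% of other lncRNA genes.

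Signal at the bound host genes was described by the pileup, a count of the extended tags that cover the summit, and by fold enrichment, the pileup over the local background. SNHG31 on chromosome 2, host of SNORA70I, had the strongest peak, with a pileup of 38 and a fold enrichment of 13.4, above 99.3% of all HSF1 peaks. SNHG10 on chromosome 14, host of SCARNA13, had a pileup of 29 and a fold enrichment of 10.6, above 94.1% of peaks. Both genes have a coding gene on the opposite strand beside them, described further on.

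GAS5 (growth arrest specific 5), which holds 10 SNORD genes and 1 SNORA gene and whose spliced RNA is known to bind the glucocorticoid receptor, had a pileup of 24 and a fold enrichment of 9.47, above 88.0% of peaks. SNHG29, the host of SNORD49A, SNORD49B and SNORD65, had a pileup of 30 and a fold enrichment of 8.66. SNHG19, the host of SNORD60, had a pileup of 21 and a fold enrichment of 8.21. With SNHG31 and SNHG10, these were the only 5 bound members with a pileup over 20.

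The next 4 members lay close together in enrichment. SNHG15, the host of SNORA9, had a pileup of 16 and a fold enrichment of 7.80, and SNHG25, the host of SNORD104, had 13 and 7.69. SNHG8, the host of SNORA24, had a pileup of 11 and a fold enrichment of 7.59, and SNHG5, the host of SNORD50A and SNORD50B, had 16 and 7.59. All 4 stood a little above the medians of bound genes in fold enrichment, while SNHG25 and SNHG8 stood below them in pileup.

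The weakest peaks were those of SNHG30, SNHG6 and SNHG3. SNHG30, the host of SNORD7, had a pileup of 10 and a fold enrichment of 6.18. SNHG6, the host of SNORD87, had a pileup of 9 and a fold enrichment of 5.95. SNHG3, the host of SNORA73A and SNORA73B, had a pileup of 10 and a fold enrichment of 5.09, and only 7.98% of all HSF1 peaks were less enriched.

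Across the 12 bound host genes the median pileup was 16 (95% interval 10 to 29), against 14 at bound lncRNA genes and 14 at bound protein-coding genes. The median fold enrichment was 7.75 (interval 6.18 to 9.47), against 7.22 and 7.29. Both comparison medians fell inside the interval of the host genes, so a difference in strength was not detectable with 12 genes. Fold enrichment was above the median of all HSF1 peaks (6.85) at 9 of the 12 members and pileup was above it (13) at 7. The peaks of the host genes had a median length of 495 bp (interval 241 to 532), against 381 bp and 391.5 bp.

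**Figure D2:**
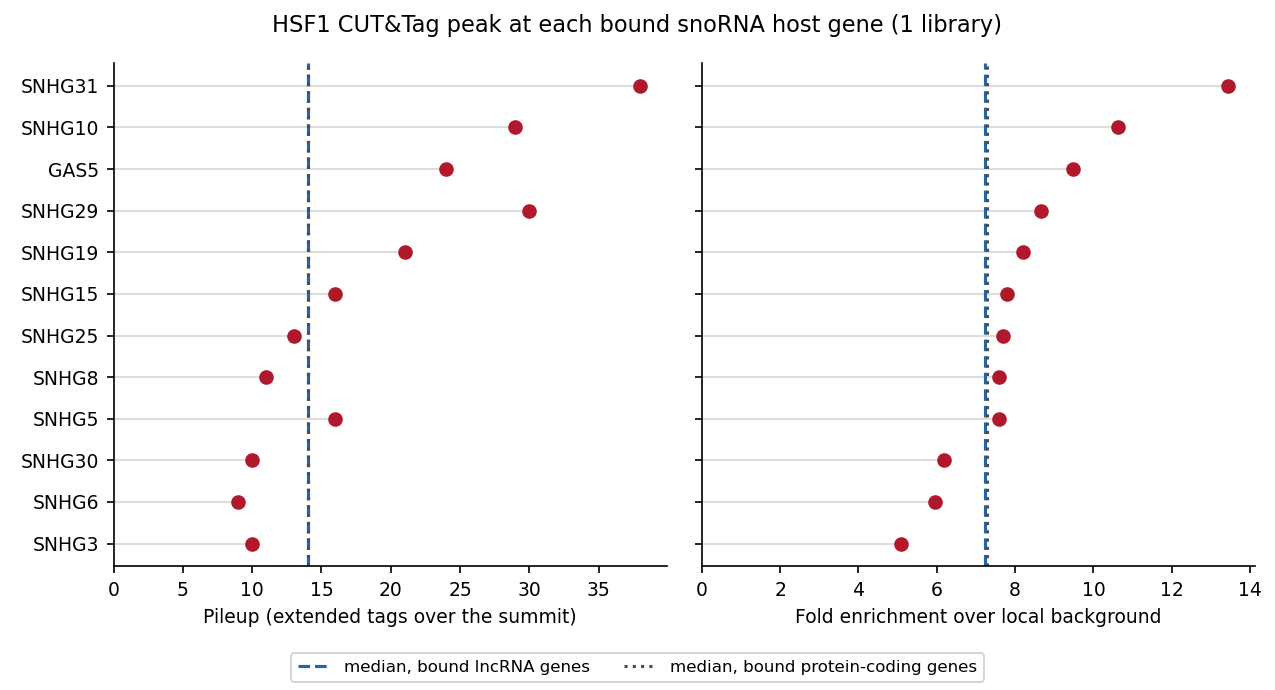
Pileup (left, extended tags over the summit) and fold enrichment over local background (right) of the HSF1 peak at each of the 12 bound snoRNA host genes, 1 point per gene from 1 library, ordered by fold enrichment. The blue dashed and grey dotted lines are the medians of bound lncRNA and bound protein-coding genes, and SNHG31 lies farthest to the right in both panels with 38 and 13.4.

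The summits lay near the starts. Relative to the canonical start, the first base of the transcript that GENCODE gives as canonical, 10 of 12 summits were upstream, 7 were within 100 bp, and 7 were outside the annotated gene. The median position was −83 bp (interval −235 to −20), against −73 bp at bound lncRNA genes and −107 bp at bound protein-coding genes. SNHG30 and SNHG25 had summits 10 bp downstream and 20 bp upstream of the canonical start. GAS5 was at the other end, with a summit at −359 bp, inside the annotated gene but outside the exons of its canonical transcript. SNHG15, at 85 bp, and SNHG30 were the only members with the summit downstream of the start, in an exon of the canonical transcript.

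The 17 unbound members were separated from the bound ones by a wide gap. The bound members had their summit at most 353 bp from the nearest annotated start (GAS5), while the closest unbound member, SNHG1, had the nearest HSF1 summit 11791 bp away. SNHG4 followed at 19467 bp, SNHG11 at 23482 bp, SNHG12 at 27163 bp, SNHG7 at 32972 bp and SNHG17 at 37442 bp. The nearest summit lay between 51846 and 70038 bp from SNHG20, SNHG9, SNHG21, SNHG16 and SNHG28. It lay farther than 100 kb from SNHG26 (158119 bp), SNHG32 (341071 bp), SNHG27 (347924 bp), SNHG22 (441889 bp), SNHG18 (807406 bp) and SNHG14 (1412462 bp). The distance limit of 1 kb therefore decided no member, and the same 12 were bound at 500 bp and at 2 kb. Hosts of many snoRNAs were found on both sides, since GAS5 was bound while SNHG1 and SNHG14 were not.

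Host genes that lie near each other could differ. On chromosome 1, SNHG3 (chr1:28505980-28510892) was bound while SNHG12 (chr1:28578538-28583132), which holds 3 SNORA genes and SNORD99, was not. On chromosome 16, SNHG19 (chr16:2154792-2155405) was bound and SNHG9 (chr16:1964895-1965509), the host of SNORA78, was not. SNHG17 and SNHG11, neighbours on chromosome 20 that hold the SNORA71 genes, were both unbound. Chromosome 17 held 5 members spread along its length, of which SNHG29, SNHG30 and SNHG25 were bound and SNHG16, the host of SNORD1A, SNORD1B and SNORD1C, and SNHG20, the host of SCARNA16, were not. The lowest pileup in the HSF1 list was 4, so binding weaker than this was not detectable at the depth of the library.

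Host genes often started at or beside the start of a coding gene, and bound members were found with and without such a partner. A protein-coding start lay within 1 kb of a start of 13 of 29 host genes, or 44.8% (interval 28.4 to 62.5), against 22.5% of all lncRNA genes and 23.3% of protein-coding genes with another coding gene. Divergent pairs, in which the 2 genes lie on opposite strands, made up 8 of these 13, or 27.6% of host genes (interval 14.7 to 45.7), against 20.6% and 17.7%. The interval of the host genes lay above both comparison shares for a partner on either strand and held both for divergent pairs. Other lncRNA genes with an intronic snoRNA shared a promoter in 33 of 95 cases (34.7%, interval 25.9 to 44.7), a share inside the host interval. Since host genes have many annotated starts, the share was also taken from canonical starts only, which gave 31.0% of host genes (interval 17.3 to 49.2), 14.9% of all lncRNA genes and 14.1% of protein-coding genes. With partners that have a gene symbol only, the shares were 37.9% (interval 22.7 to 56.0), 22.3% (interval 21.7 to 22.9) and 21.6%, and the intervals of host genes and all lncRNA genes then overlapped.

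Among the divergent pairs, 4 were bound and 4 were not. The bound ones were SNHG31 with BARD1, the partner of BRCA1, SNHG10 with GLRX5, a mitochondrial glutaredoxin for iron-sulfur clusters, GAS5 with ZBTB37, and SNHG19 with TRAF7, a ubiquitin ligase. The unbound ones were SNHG18 with SEMA5A, SNHG1 with SLC3A2, SNHG9 with RPS2, a protein of the small ribosomal subunit, and SNHG22 with ACAA2. Coding starts on the same strand belonged to RCC1 at SNHG3 and to a readthrough model without a symbol at SNHG5, both bound. They belonged to MATR3 at SNHG4, SEC14L1 at SNHG20 and another such model at SNHG28, all unbound. At SNHG3, SNHG5, SNHG4 and SNHG20 a coding transcript began on the very base of a host start (0 bp apart). Such a partner is annotated from the same start, not from a second start beside it. At SNHG28 the distance was 276 bp.

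At these bound pairs the summit was sometimes nearer to the coding gene than to the host. In GAS5 the summit was 32 bp from the start of ZBTB37 and 353 bp from the nearest GAS5 start. In SNHG3 it was 23 bp from a start of RCC1 and 60 bp from the SNHG3 start, a base where RCC1 has an annotated start too. The distance to the coding start was 211 bp for SNHG19, 250 bp for SNHG5, 307 bp for SNHG31 and 324 bp for SNHG10, and in SNHG10 the nearest host start was 25 bp away. Which gene of a pair the bound HSF1 belongs to cannot be told apart from the position of a peak. The other 6 bound members, SNHG29, SNHG15, SNHG25, SNHG8, SNHG30 and SNHG6, had no coding start within 1 kb of the summit.

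The share bound was next given separately for genes with and without a coding neighbour. With no coding start in 1 kb, 6 of 16 host genes were bound, or 37.5% (interval 18.5 to 61.4), against 400 of 14610 other lncRNA genes, or 2.74% (interval 2.49 to 3.02), and 20.4% of protein-coding genes (interval 19.7 to 21.0). With a divergent coding start, 4 of 8 host genes were bound, or 50% (interval 21.5 to 78.5), against 26.1% of other lncRNA genes and 46.4% of coding genes. With a coding start on the same strand only, 2 of 5 host genes were bound, or 40% (interval 11.8 to 76.9), against 15.1% (interval 11.7 to 19.2) and 28.8%. Among all bound lncRNA genes, 68.7% had a divergent coding start, against 33.3% (4 of 12, interval 13.8 to 60.9) of bound host genes.

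Host genes also had more annotated starts and a higher GC content than most lncRNA genes, and among other lncRNA genes the share bound was higher with more starts and with higher GC. The median number of starts was 10 for host genes, 1 for all lncRNA genes and 5 for protein-coding genes, and median GC around the canonical start (150 bp upstream to 50 bp downstream) was 62.7%, 49.8% and 65.7%. Within genes of 10 or more starts, 33.3% of 15 host genes (interval 15.2 to 58.3), 17.5% of other lncRNA genes (interval 15.1 to 20.3) and 38.4% of coding genes were bound. Within genes of 5 to 9 starts the shares were 50% of 8 host genes, 15.7% and 29.6%. At a GC content of 60% to under 70% they were 46.2% of 13 host genes (interval 23.2 to 70.9), 19.5% and 35.1%, and at 50% to under 60% they were 50% of 10 host genes (interval 23.7 to 76.3), 6.74% and 19.6%. Only 1 of 5 host genes with a GC content of 70% or more was bound, SNHG31, which is 20% (interval 3.62 to 62.4) against 24.7% and 28.1%. Each such group holds few host genes, and the intervals of host genes and other lncRNA genes overlapped in the group with 10 or more starts, at a GC content of 70% or more or under 50% (0 of 1 host gene bound), and with a coding start that was divergent or on the same strand only. The parts that the number of starts, GC content and coding neighbours play in the higher share of host genes were not tested.

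Genes that carry an intronic snoRNA without belonging to the SNHG family were described in the same way. Among 95 other lncRNA genes with an intronic snoRNA, 20 were bound, or 21.1% (interval 14.1 to 30.3). Among 516 protein-coding genes with one, 194 were bound, or 37.6% (interval 33.5 to 41.9), against 25.1% (interval 24.5 to 25.7) of the 19517 without. The interval of the SNHG genes and GAS5, 25.5 to 59.3, overlapped those of both groups with an intronic snoRNA.

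CCAAT boxes were searched as CCAAT on either strand. In the window from 150 bp upstream to 50 bp downstream of the canonical start, 9 of 29 host genes held one, or 31.0% (interval 17.3 to 49.2), close to the 26.3% of all lncRNA genes and 28.5% of protein-coding genes. A box was present in 6 of 12 bound members (50%, interval 25.4 to 74.6: SNHG10, SNHG29, SNHG19, SNHG25, SNHG5 and SNHG30) and in 3 of 17 unbound ones (17.6%, interval 6.19 to 41.0: SNHG14, SNHG9 and SNHG22), with overlapping intervals. In a wider window, from 300 bp upstream to 100 bp downstream, these shares were 50% and 29.4% (5 of 17), and the share of all host genes, 37.9%, was below the 42.8% of all lncRNA genes and 41.3% of coding genes. Read the other way, 6 of 9 host genes with CCAAT were bound (66.7%, interval 35.4 to 87.9) and 6 of 20 without (30%, interval 14.5 to 51.9). The same split gave 9.07% and 7.30% in other lncRNA genes and 32.8% and 22.5% in coding genes.

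In several members a box lay almost at the summit. The distance from the summit to the middle of the nearest CCAAT was 2 bp in SNHG19, 3 bp in SNHG29, 6 bp in SNHG10, 21 bp in SNHG25 and 50 bp in SNHG30. It was 102 bp in SNHG5, 165 bp in SNHG8 and 279 bp or more in SNHG6, SNHG15, SNHG3, GAS5 and SNHG31. Within 100 bp of the summit, 5 of 12 members held a box (41.7%, interval 19.3 to 68.0), against 35.6% of bound lncRNA genes and 36.6% of bound coding genes, so this share was near its background.

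The peak of SNHG10 was the richest in boxes. It held 6 in 527 bp, a number that only 1.33% of all HSF1 peaks reached, and SNHG29 and SNHG19 held 3 each, reached by 8.84%. These ranks make no allowance for length, and the peaks of SNHG29 (532 bp) and SNHG19 (477 bp) were long too. The median over all HSF1 peaks was 346 bp. At least 3 boxes were present in 25.0% of host peaks (3 of 12, interval 8.89 to 53.2). The shares at bound lncRNA genes (11.6%) and bound coding genes (12.4%) fell inside that interval. Over all 12 peaks there were 16 boxes in 5130 bp, or 3.12 per kb, against 2.45 per kb at bound lncRNA genes, 2.48 at bound coding genes and 2.12 over all HSF1 peaks. The peak of SNHG10 set this density, which was 2.17 per kb (10 boxes in 4603 bp) without it. At least 1 box was present in 50% of the host peaks, close to the 48.4% and 48.2% of peaks at bound lncRNA and coding genes. The 279 bases of the SNHG10 peak that hold the 6 boxes are printed on the strand of SNHG10, with the boxes in capitals. The box at the summit is the last of them.
SNHG10, chr14:95534720-95534998, minus strand: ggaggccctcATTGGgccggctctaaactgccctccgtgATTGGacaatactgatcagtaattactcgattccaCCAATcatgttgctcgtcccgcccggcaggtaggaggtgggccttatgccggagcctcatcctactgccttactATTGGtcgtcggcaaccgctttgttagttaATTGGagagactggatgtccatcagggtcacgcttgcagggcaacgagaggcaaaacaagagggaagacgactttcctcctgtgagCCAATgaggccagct

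**Figure D3:**
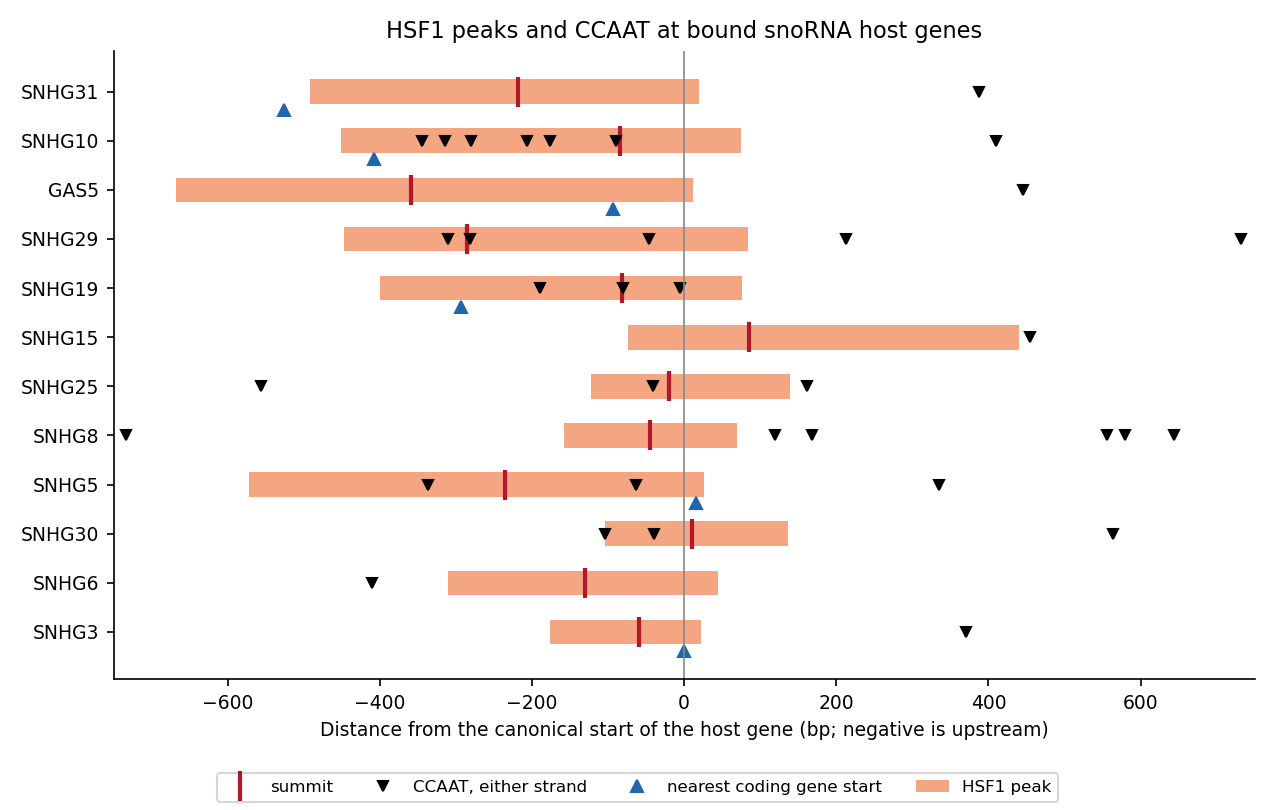
Map of the HSF1 peak (orange bar), its summit (red line), every CCAAT on either strand (black triangles) and the nearest coding gene start (blue triangles) at each bound snoRNA host gene, with the distance from the canonical start of the host gene on the x axis (bp, negative is upstream, 750 bp to either side). Most summits lie upstream of the start, and in SNHG10, SNHG29 and SNHG19 a CCAAT lies within 6 bp of the summit. Within 100 bp of the summit the host share (41.7%) was near that of bound lncRNA (35.6%) and bound coding genes (36.6%).

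The heat shock element, the repeat of GAA and its complement that trimers of HSF1 are known to bind, was searched as GAANNTTCNNGAA on both strands with up to 1 mismatch in its 9 fixed bases. None of the 29 host genes held it at the canonical start and none of the 12 summits had it within 100 bp, which allows shares of up to 10.3% and 25%. It was rare elsewhere too, at the start of 5.16% of all lncRNA genes and 2.73% of coding genes, and within 100 bp of the summit in 1.69% of bound lncRNA genes and 2.41% of bound coding genes. At 29 genes a share of this size was not detectable.

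The letters CACGTG, the E-box to which MYC family proteins are known to bind, were found at the start of 5 of 29 host genes (17.2%, interval 7.60 to 34.5), against 4.04% of all lncRNA genes and 6.67% of coding genes. The interval lay above both shares, but it held the 8.33% of protein-coding genes with an intronic snoRNA (43 of 516) and overlapped the interval of other lncRNA genes with one (6 of 95, 6.32%, interval 2.93 to 13.1). The host genes with these letters were SNHG25 and SNHG30, both bound, and SNHG4, SNHG7 and SNHG9, all unbound. Within 100 bp of the HSF1 summit, the letters were present in SNHG29, SNHG25 and SNHG30 (3 of 12, 25.0%, interval 8.89 to 53.2), against 6.78% of bound lncRNA genes and 7.28% of bound coding genes. In those 3 members a CCAAT box lay within 100 bp of the summit as well.

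A TOP-like start, taken as a C at the first base of the canonical transcript followed by at least 4 further pyrimidines, was present in GAS5, SNHG29 and SNHG12. The call rests on the canonical start alone, while host genes had a median of 10 annotated starts, so it can miss a TOP start. SNHG25 began with 6 pyrimidines but not with a C and was not counted. The share by this call was 10.3% of host genes (interval 3.58 to 26.4), against 2.79% of all lncRNA genes and 4.59% of coding genes. GAS5 and SNHG29 were bound and SNHG12 was not. The host interval held the share of coding genes. Among coding genes, 57 of 516 with an intronic snoRNA had such a start (11.05%, interval 8.62 to 14.04), against 4.42% of those without. Among other lncRNA genes with an intronic snoRNA, 4 of 95 had one (4.21%, interval 1.65 to 10.3). The host interval overlapped the intervals of both groups with an intronic snoRNA. The first 20 bases of the canonical transcript are shown for the 5 members above and for SNHG1, with the pyrimidine run at the very start in capitals. The runs of GAS5 and SNHG29 were the same 6 letters, and the others began with a purine.
GAS5, chr1:173867970-173867989, minus strand: CTTTTCgaggtaggagtcga
SNHG29, chr17:16439037-16439056, plus strand: CTTTTCattcccgttgttat
SNHG31, chr2:214810209-214810228, plus strand: aggagagcgggcggggcctg
SNHG10, chr14:95534623-95534642, minus strand: gaagtttccggttccggtgt
SNHG19, chr16:2155386-2155405, minus strand: agaggtgggacagtttctat
SNHG1, chr11:62855903-62855922, minus strand: ggcatggtatttaatcgtct

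**Figure D4:**
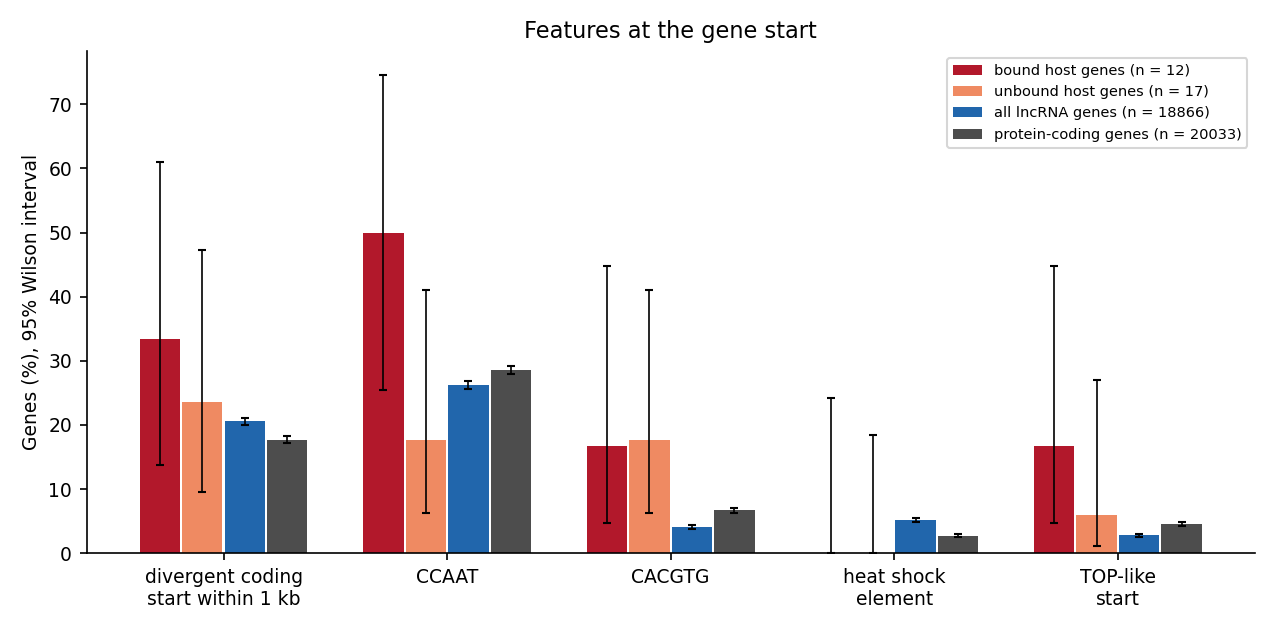
Share of genes (y axis, percent, from 0) with a divergent coding start within 1 kb, and with a CCAAT box, an E-box, a heat shock element or a TOP-like start at the canonical start, for the 12 bound and 17 unbound snoRNA host genes, all 18866 lncRNA genes and 20033 protein-coding genes, with 95% Wilson intervals. The CCAAT box stands at 50% of bound and 17.6% of unbound host genes with overlapping intervals, and no host gene has a heat shock element.

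No snoRNA host gene had an H3K27ac CUT&Tag peak within 1 kb of a start. The count of 0 of 29 allows a share of up to 10.3%, and the background was 1.25% of all lncRNA genes (235 genes) and 3.31% of protein-coding genes (664 genes). Among bound genes the share was 11.2% of lncRNA genes (165 of 1475) and 10.1% of coding genes (515 of 5098), and the 0 of 12 bound host genes allows up to 25%. Both comparison shares were under that limit, so a lack of H3K27ac was not detectable here. The H3K27ac summit closest to any host gene was 19721 bp from a start of SNHG4, and the median distance over the 29 members was 826185 bp. This list was short, and 5.70% of its tags remained after duplicate removal.

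The genes whose products handle snoRNAs were described from lists of the pathway. Of the box C/D core proteins, NOP58 (pileup 8, fold enrichment 4.84) and NOP56 (10 and 5.85) were bound, while the methyltransferase FBL and SNU13 were not. Of the box H/ACA core proteins, NHP2 (11 and 6.32) and the pseudouridine synthase DKC1 (11 and 7.59) were bound, while GAR1 and NOP10 were not. In total 4 of these 8 core genes had a peak, none of them stronger than the median host gene.

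Of 10 factors that assemble snoRNPs, 5 were bound. These were the ATPases RUVBL1 (pileup 14, fold enrichment 8.24) and RUVBL2 (15 and 7.27), the cap hypermethylase TGS1 (9 and 5.62), NOPCHAP1 (9 and 6.94) and PIH1D1 (24 and 8.45), which also had an H3K27ac peak. Of 9 factors of nonsense-mediated decay, 5 were bound. UPF2 was the strongest (26 and 10.3), followed by SMG9 (10 and 6.88), the kinase SMG1 (14 and 6.58), and the helicase UPF1 (13 and 5.38) and UPF3B (6 and 5.38), while UPF3A, SMG5, SMG6 and SMG8 were not bound. H3K27ac peaks lay at UPF2, SMG1 and UPF3A. The background was 25.4% of protein-coding genes, and nothing is read from the counts of lists this short.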

How the data were processed

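CUT&Tag peak lists of 1 HSF1 and 1 H3K27ac library of Huh7 cells were used. The authors called the peaks of each on hg38 (MACS 2.1.4, no control, p-value cutoff 1e-05), with tags shifted by -100 bp and extended to 200 bp, duplicates removed and the local background taken over 10 kb, per the file headers. The submitters' processing notes name Bowtie, Picard, MACS2 and deepTools. Pileup was deposited as an unscaled signal. Fold enrichment was deposited as a ratio in which 1 is added to both the pileup and the local background. The authors' caller also wrote −log10 p- and −log10 q-values, and since the headers say that q-values were not calculated, they served only as a filter in an alternative. The H3K27ac ChIP-seq lists are on hg19 by their headers and were not used, since no coordinates were converted. The 6 RNA-seq samples were not analysed here, and the peak lists carry no expression value, so whether any host gene was transcribed is not shown.

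Gene starts, types and canonical transcripts are those of GENCODE release 44. Where several summits lay within 1 kb of a gene, the one with the highest pileup was used. A snoRNA counted as intronic when a GENCODE gene lay in an intron on the same strand. For this purpose, 447 RefSeq snoRNA genes of GRCh38 that GENCODE lacks were added, without a strand, where the surrounding introns lay on 1 strand. The density of CCAAT boxes was also taken without SNHG10, and shared promoters were also counted from canonical starts and from partners with a symbol. Shares have 95% Wilson intervals and medians have intervals from order statistics, and both cover counting error only. For a count of 0, the upper limit is 3 counts of the total. Genes were named by a fixed rule: every member, the pathway lists and the marker lists, with sequences for the 5 bound members of highest fold enrichment and first transcript bases for these, GAS5 and SNHG1. One gene of the pathway lists is not reported here and was left out of its list. The members and lists were chosen with earlier results of these data known, and the splits by starts, GC and CCAAT, the counts of CCAAT over whole peaks and the longer SNHG10 sequence were added after the values were seen.

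Sequences were read with pysam 0.24.0, shares and medians were computed with scipy 1.17.1, pandas 2.3.3 and numpy 2.4.6, and plots were drawn with matplotlib 3.10.9, under Python 3.11.15. The functions were tested on simulated data of 2000 genes, and all 8 checks passed.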

Additional observations from a re-analysis of the deposited data

How the results depend on the processing

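With 1 library per antibody, no setting could be tested against a spread between samples, and the intervals reflect the number of genes. Of 35 alternative values for 9 results, 25 stayed inside the interval of the value reported and 10 moved outside it. The share of host genes bound was 41.4% at 500 bp, at 2 kb, with the canonical start only, with any base of the peak within 1 kb and at a fold enrichment of at least 5, and 37.9% at a −log10 q-value of at least 5, where SNHG3 was lost. The share of lncRNA genes bound was 6.78% at 500 bp, 8.87% at 2 kb, 7.20% with the canonical start only and 6.76% at that q-value. For protein-coding genes these shares were 24.3%, 26.3%, 22.8% and 22.03%, and 24.5% at a fold enrichment of at least 5. The host genes' share of promoters shared with a coding gene was 27.6% on the opposite strand only, 31.0% with canonical starts only and 37.9% with partners that have a symbol, the last an alternative chosen after the data were seen. The count of 0 host genes with an H3K27ac peak was the same in all 3 alternatives run. No paired analysis was possible because there was 1 library per antibody. At the depth of these lists, a gene without a peak is a gene where no peak was detected.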
